A study of Mus musculus with 26 samples.

Results

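RNA immunoprecipitated (IP) from mouse retina was compared with that from the optic nerve head (ONH), the place where ganglion cell axons leave the eye. The comparison was chosen by the tissue labels and takes in 13 of the 26 libraries of the series, 6 retina IP and 7 ONH IP. All animals were untreated and sampled at day 0, and libraries were made from poly(A) RNA with a kit for ultra-low input. The tag used for the immunoprecipitation and the strain, genotype, age and sex of the animals are not given in the sources used here. The other libraries are 6 retina inputs, RNA before immunoprecipitation, and 7 IP libraries of the optic nerve proper (ONP). The labels place the 6 retina IP libraries in sequencing batch 2 and ONH replicates 1 to 6 in batch 1. ONH replicate 7 is the 1 ONH library of batch 2, and its value is given beside the levels of the genes described.

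Astrocytes are glial cells that line the inner surface of the retina and bundle the axons of the optic nerve head. They enter the retina from the optic nerve during development. Ganglion cells attract them with platelet-derived growth factor, and the astrocytes guide the growing retinal vessels. In the mouse optic nerve head, astrocytes form tubes around axons that are not yet wrapped in myelin, and oligodendrocytes start behind this zone. The mouse retina holds no oligodendrocytes, and its other main glia are the Müller cells.

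Total counts ranged from 14703195 to 24966236 in retina IP and from 14812762 to 26407745 in ONH IP. Levels are in CPM (library-scaled counts with a common total) and can be compared between libraries for 1 gene but not between genes. Separate animals are not stated for the libraries, so p-values cover the spread between libraries, which may be technical. The retina IP libraries were uneven: Pdgfra stood at 151, 1162, 1083, 1402, 232 and 232 CPM in replicates 1 to 6. In retina input replicates 1 to 6 it stood at 51.1, 175, 129, 171, 199 and 224 CPM. Retina IP replicates 5 and 6 were thus near the inputs of the same number. Their ganglion cell marker sums were also near, at 5724 and 6144 CPM in IP against 5507 and 5915 CPM in input. ONH replicate 7 stood apart from ONH replicates 1 to 6. Its rod photoreceptor genes summed to 57181 CPM, against 112 to 1026 CPM in the other ONH libraries and 775 to 3241 CPM in retina IP, and it had counts for 23959 genes against 17762 to 20116. Y-linked genes summed to 54.5 to 108 CPM in ONH replicates 1 to 6 and to 0 in ONH replicate 7 and in all retina IP libraries, so the sex of the animals and the batch cannot be told apart.

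Of 16355 genes tested with edgeR and a batch term, 2080 (12.7%) were called higher and 3452 (21.1%) lower in retina IP at an adjusted p under 0.05. Batch and region overlap almost wholly, so a second condition was set: no overlap in CPM between the 6 retina IP libraries and all 7 ONH libraries. Genes that met both are called apart here, and there were 1087 (6.65%) higher and 2029 (12.4%) lower. The median log2 fold change over all genes was -0.13. Counts for the gene lists below are to be read beside these shares. ONH replicate 7 lay below all retina IP libraries for 1812 of the 2080 genes called higher, and above them for 3354 of the 3452 called lower. Replicate 7 is part of the fit and, with ONP replicate 7, sets its batch term. These counts are therefore no separate check of the calls. For 1074 of the 2508 genes whose retina IP values lay above ONH replicates 1 to 6, replicate 7 did not lie below the retina. Of the 1087 genes higher and apart, 874 also lay above all 7 ONP libraries. Without ONP replicate 7, the other optic nerve library of batch 2, the counts of calls fell to 722 and 2262. Within batch 2 alone, 121 and 697 genes were called.

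Among genes with a mean of at least 10 CPM, the 12 largest differences in favour of the retina included Ackr2, Angpt4, Pax8, Cd36 and Cldn10 and the neuronal genes Pou4f3, Elavl2 and Opn4. Of the 1087 genes higher and apart, 78 (7.18%) had a retina IP mean over 2-fold the retina input mean, against 2062 of all 16355 genes (12.6%). Ackr2 (ENSMUSG00000044534, mm10 chromosome 9, 121898355 to 121911074), a scavenger receptor for inflammatory chemokines, ranged from 12.5 to 180 CPM in retina IP (median 51.6) and from 0.165 to 12.5 CPM in retina input. It had 1 count in all 7 ONH libraries together and 9861 in retina IP, which gives a 10452-fold ratio (95% interval 1875 to 412861, covering counting error only). Every retina IP library lay above every ONH library, and ONH replicate 7 had 0 counts of Ackr2.

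Angpt4 (ENSMUSG00000027460, mm10 chromosome 2, 151911210 to 151945337), an angiopoietin that binds the Tie2 receptor of vessels, ranged from 54 to 679 CPM in retina IP (median 292). In ONH replicates 1 to 6 it ranged from 0.219 to 2.62 CPM (median 0.913), and replicate 7 was at 0.182 CPM. The log2 fold change was 9.55 (SE 1.57, adjusted p = 0.00014), and 10.93 within batch 2 (adjusted p = 0.0688). Angpt1, another angiopoietin that binds Tie2, went the other way. It stood at 0.676 to 4.01 CPM in retina IP (median 1.43), 21.3 to 32.8 CPM in ONH replicates 1 to 6 (median 30.8) and 13.1 CPM in replicate 7 (log2 fold change -3.15, SE 0.453, adjusted p = 3.5e-05).

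Cldn10, a claudin of tight junctions that is also a marker of astrocytes, ranged from 82.1 to 765 CPM in retina IP (median 316). ONH replicates 1 to 6 held 0.492 to 7.23 CPM (median 1.98) and replicate 7 held 3.5 CPM (log2 fold change 6.87, SE 1.42, adjusted p = 0.00106; 6.94 within batch 2, adjusted p = 0.13). Pax8, the paired-box factor that lies on mm10 chromosome 2 from 24420560 to 24475599, ranged from 30.2 to 377 CPM in retina IP (median 148), from 0.422 to 10.5 CPM in ONH replicates 1 to 6 (median 3.74) and stood at 0.999 CPM in replicate 7. Its log2 fold change was 6.98 (SE 1.80, adjusted p = 0.00567), and the call ended without ONH replicate 7 (adjusted p = 0.0775). Both genes kept the 2 groups apart. Cd36, a scavenger receptor that takes up fatty acids, ranged from 198 to 2080 CPM in retina IP (median 697), from 0.351 to 34.3 CPM in ONH replicates 1 to 6 (median 10.2) and stood at 3.22 CPM in replicate 7. Its log2 fold change was 6.91 (SE 1.85, adjusted p = 0.00708), and this call too ended without ONH replicate 7 (adjusted p = 0.0947). Pdgfra, the receptor for platelet-derived growth factor A, ranged from 151 to 1402 CPM in retina IP (median 658), from 30.9 to 62 CPM in ONH replicates 1 to 6 (median 43.3) and stood at 17.3 CPM in replicate 7. It differed by 4.84 (SE 0.869, adjusted p = 0.000317), and by 5.56 within batch 2 (adjusted p = 0.14). Retina IP replicates 2, 3 and 4 were the 3 highest libraries for Ackr2, Angpt4, Pax8, Cd36, Cldn10 and Pdgfra.

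**Figure D1:**
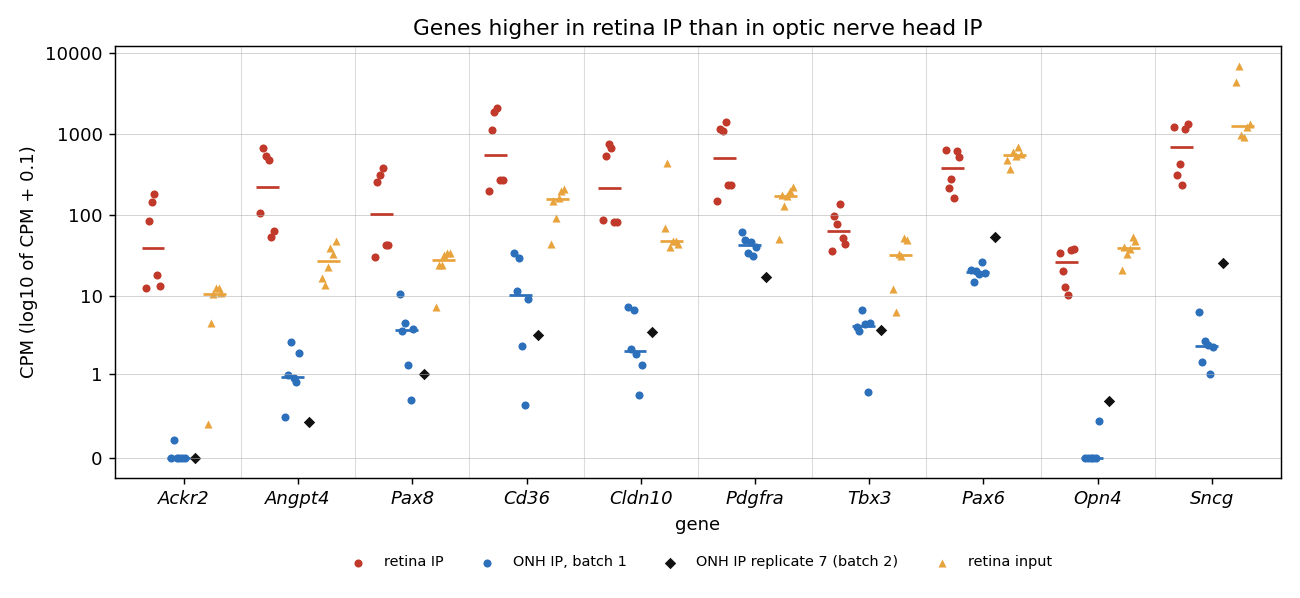
Levels of 10 genes higher in retina IP, in CPM on a log10 axis after adding 0.1, with 1 point per library and a bar at the median of each group. Retina IP lies above all 7 ONH libraries for each gene, and retina input reaches as high as retina IP or higher for Pax6, Opn4 and Sncg but lies below most IP libraries for Angpt4, Pax8 and Cd36.

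Another group of retina-high genes belonged to ganglion cells, whose bodies lie beside the astrocytes. Of 15 ganglion cell markers, 13 were called higher and apart and 0 lower, with a median log2 fold change of 4.73. Their summed level ranged from 1029 to 6144 CPM in retina IP, from 34.9 to 105 CPM in ONH replicates 1 to 6, and was 287 CPM in replicate 7 and 4320 to 9140 CPM in retina input. Opn4, the photopigment melanopsin of light-sensitive ganglion cells, stood at 33.7, 20.5, 12.8, 10.1, 36.7 and 38.3 CPM in retina IP replicates 1 to 6. It stood at 0 to 0.185 CPM in ONH replicates 1 to 6 and 0.409 CPM in replicate 7 (log2 fold change 6.67, SE 1.29, adjusted p = 0.000611; 6.09 within batch 2, adjusted p = 0.0247). Retina IP replicates 2, 3 and 4, the highest for the 6 genes above, were the lowest for Opn4 and for Sncg, which encodes gamma-synuclein. Sncg ranged from 236 to 1327 CPM in retina IP (median 785) and from 0.984 to 6.3 CPM in ONH replicates 1 to 6 (median 2.31), with 25.5 CPM in replicate 7 (log2 fold change 5.52, SE 0.916, adjusted p = 0.000151).

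Slc17a6, the vesicular glutamate transporter of ganglion cells (50.9 to 358 CPM in retina IP, 0 to 0.925 CPM in ONH replicates 1 to 6 and 7.99 CPM in replicate 7), also rose (log2 fold change 5.51, adjusted p = 0.00279). So did Elavl2, an RNA-binding protein gene of neurons (30.3 to 106 CPM against 0 to 0.275 CPM, and 0.818 CPM in replicate 7; 6.68, adjusted p = 0.000196). Pou4f3, a POU transcription factor of ganglion cells, had 3 counts in all ONH libraries and 1555 in retina IP, giving a ratio of 549 (95% counting interval, 188 to 2667), and stood at 0.0908 CPM in replicate 7. Amacrine and horizontal cell markers had 4 of 12 members called higher and apart and 1 lower, and 0 higher without ONP replicate 7. Retina input, RNA of the whole retina, held 20.7 to 53.3 CPM of Opn4 and 930 to 7020 CPM of Sncg, and its part in these differences was not tested.

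Transcription factors split by region. Of 29 eye-field and optic stalk factors tested, 9 were called higher in retina IP (7 apart) and 10 lower (7 apart), with a median log2 fold change of 0.11. These counts were 5 and 6 without ONH replicate 7 and 4 and 5 without ONP replicate 7. Pax6, which specifies the eye field, ranged from 161 to 639 CPM in retina IP (median 395), from 14.7 to 26.2 CPM in ONH replicates 1 to 6 (median 19.8) and was 54.1 CPM in replicate 7. It differed by 3.49 (SE 0.672, adjusted p = 0.000592), and retina input held a median of 553 CPM. Tbx3, a T-box factor of the dorsal retina, ranged from 36.2 to 138 CPM in retina IP (median 64.8) with an input median of 32.3 CPM. It stood at 0.562 to 6.57 CPM in ONH replicates 1 to 6 (median 4.23) and 3.68 CPM in replicate 7 (log2 fold change 4.91, SE 0.984, adjusted p = 0.000842; 4.52 within batch 2, adjusted p = 0.0485). Meis2, a homeobox factor of the early eye, was 34.4 to 136 CPM in retina IP, 4.68 to 15.2 CPM in ONH replicates 1 to 6 and 27.2 CPM in replicate 7 (2.12, adjusted p = 0.0138), a call that ended without ONP replicate 7 (adjusted p = 0.175). Pax2, a marker of the optic stalk and the astrocytes that arise from it, overlapped: 0.534 to 12.3 CPM in retina IP, 1.04 to 3.3 CPM in ONH replicates 1 to 6 and 0.818 CPM in replicate 7 (1.90, SE 0.985, adjusted p = 0.142).

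Several homeobox genes among the largest differences in favour of ONH were near 0 in the retina. Dlx4 (ENSMUSG00000020871, mm10 chromosome 11, 95140447 to 95146263) and its neighbour Dlx3 (chromosome 11, 95120119 to 95125296), both of the distal-less family, had 0 counts in all 6 retina IP libraries. Dlx4 ranged from 20.5 to 35.9 CPM in ONH replicates 1 to 6 (median 26.2) and was 11.7 CPM in replicate 7, at least 1048-fold higher in ONH against a floor of 3 counts over the retina group. Dlx3 ranged from 8.76 to 29.7 CPM (median 15.9) with 8.95 CPM in replicate 7, at least 692-fold higher. In ONP, Dlx4 was 5.15 to 21.2 CPM and Dlx3 was 3.3 to 25.2 CPM. Nkx6-1 (ENSMUSG00000035187, mm10 chromosome 5, 101658139 to 101664996), a ventral homeobox factor, had 1 count in retina IP and 2150 in ONH, giving a ratio of 2028 (95% counting interval, 364 to 80158). Nkx6-1 stood at 6.52 to 20.9 CPM in ONH replicates 1 to 6 and 16.4 CPM in replicate 7. Nkx6-2, its relative in myelinating glia, was 0.107 to 1.15 CPM in retina IP, 77.9 to 300 CPM in ONH replicates 1 to 6 and 125 CPM in replicate 7 (log2 fold change -8.07, SE 0.532, adjusted p = 1.96e-09).

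Dbx2, a homeobox factor of neural tube progenitors, was 0 to 0.349 CPM in retina IP, 3.49 to 16.6 CPM in ONH replicates 1 to 6 and 7.9 CPM in replicate 7 (-6.81, adjusted p = 2.04e-06). Nr2f1, an orphan nuclear receptor of the optic nerve, fell less far: 5.71 to 15.4 CPM in retina IP, 32.4 to 64.6 CPM in ONH replicates 1 to 6 and 36.1 CPM in replicate 7 (-2.64, SE 0.412, adjusted p = 8.24e-05). Of 22 glial lineage factors, 0 were called higher and 8 lower, 7 of them apart. They include Olig2 and Sox10, factors of the oligodendrocyte lineage, and the levels of oligodendrocyte markers are given beside them below.

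Astrocyte markers did not move as 1 group. Of 28 tested, 4 were called higher (3 apart) and 10 lower (9 apart), with a median log2 fold change of -0.93; without ONH replicate 7 there were 2 and 6. Their summed level ranged from 16231 to 70657 CPM in retina IP, from 60215 to 100342 CPM in ONH replicates 1 to 6, and was 29376 CPM in replicate 7, inside the retinal range. Retina input held 7917 to 28788 CPM, which overlaps retina IP. Gfap, the main intermediate filament of astrocytes, stood at 361, 2808, 1568, 3762, 796 and 924 CPM in retina IP replicates 1 to 6. It ranged from 46.6 to 731 CPM in retina input, with 496 and 731 CPM in input replicates 5 and 6. In ONH replicates 1 to 6 it ranged from 7521 to 20058 CPM (median 11449), and replicate 7 was at 2758 CPM, below retina replicates 2 and 4. The log2 fold change of Gfap did not pass the test (-1.12, SE 0.632, adjusted p = 0.179; -0.50 within batch 2, adjusted p = 0.848).

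The connexin Gjb6, which couples mature astrocytes, was nearly absent from the retina. It ranged from 0 to 0.384 CPM in retina IP (median 0.0612) and from 25.4 to 52.9 CPM in ONH replicates 1 to 6 (median 40.2), with 27.2 CPM in replicate 7. The log2 fold change was -7.37 (SE 0.824, adjusted p = 1.83e-06), and -7.72 within batch 2 (adjusted p = 0.00805). Fgfr3, a fibroblast growth factor receptor, was as low in the retina: 0 to 0.299 CPM (median 0.133) against 36.4 to 98.5 CPM in ONH replicates 1 to 6 (median 45.9) and 23.1 CPM in replicate 7 (-7.38, SE 0.631, adjusted p = 5.16e-08; -7.10 within batch 2, adjusted p = 0.00681). Gja1, the other astrocyte connexin, remained detectable in every retina IP library, at 15.6 to 155 CPM (median 65.4), against 0.413 to 19.6 CPM in retina input. It stood at 1012 to 1541 CPM in ONH replicates 1 to 6 (median 1115) and 434 CPM in replicate 7 (-2.74, SE 0.597, adjusted p = 0.00166). The adhesion gene Hepacam was 0.587 to 8.62 CPM in retina IP, 147 to 323 CPM in ONH replicates 1 to 6 and 103 CPM in replicate 7 (-5.07, adjusted p = 3.66e-06). Ntsr2, a neurotensin receptor of astrocytes, was 1.92 to 28.7 CPM in retina IP, 126 to 430 CPM in ONH replicates 1 to 6 and 99.6 CPM in replicate 7 (-3.76, adjusted p = 0.000289). In bulk RNA, fewer cells of a type and less RNA per cell cannot be told apart.

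**Figure D2:**
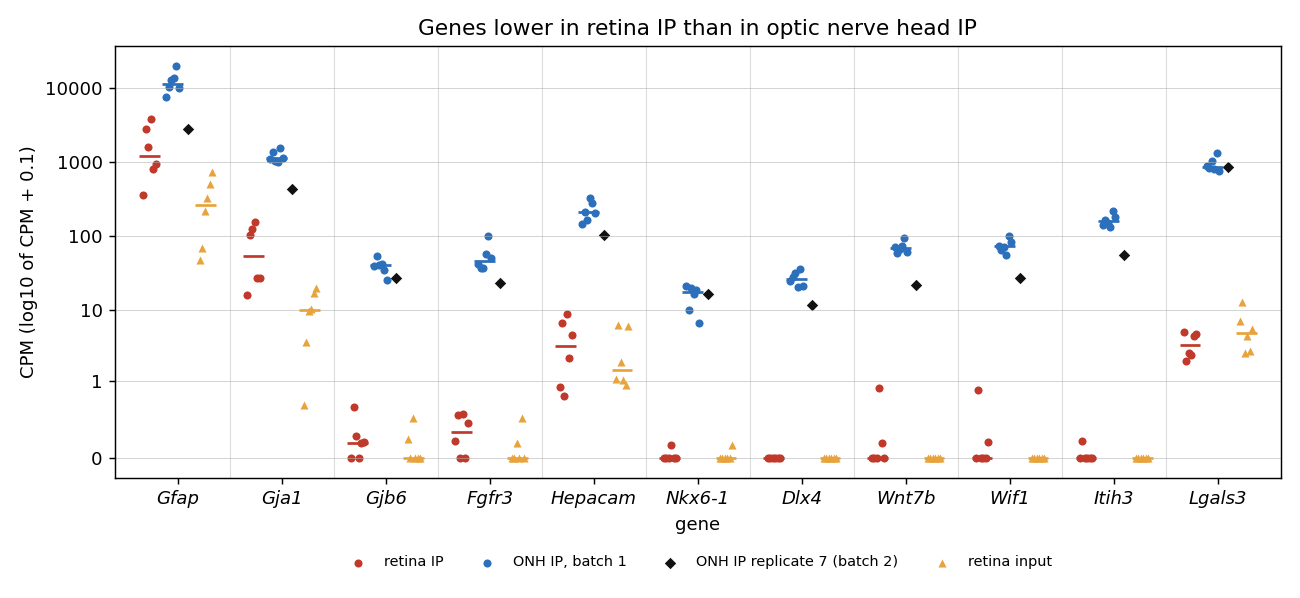
Levels of 11 genes with lower retina IP values, in CPM on a log10 axis after adding 0.1, with 1 point per library and a bar at the median of each group. ONH replicate 7 falls among the retina IP libraries for Gfap and above all of them for the other 10 genes, and Dlx4 has 0 counts in every retina IP library.

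Of 22 connexin and claudin genes, 4 were called higher (2 apart) and 12 lower (10 apart), with a median log2 fold change of -2.30, and the higher count was 2 without ONP replicate 7. The 12 lower include Gjc3, a connexin of oligodendrocytes (0 to 0.115 CPM in retina IP, 57.9 to 212 CPM in ONH replicates 1 to 6, 60.9 CPM in replicate 7; -10.38, adjusted p = 2.49e-10). Intermediate filament and cytoskeletal linker genes had 0 of 17 members called higher and 11 lower (10 apart), with a median of -1.94. Vim, which encodes vimentin, ranged from 72.6 to 379 CPM in retina IP (median 195) and from 1954 to 4713 CPM in ONH replicates 1 to 6 (median 3465), with 1360 CPM in replicate 7. It differed by -3.02 (SE 0.543, adjusted p = 0.000324). Nes, the filament nestin of immature glia, was 0.0489 to 5.93 CPM in retina IP, 72.2 to 222 CPM in ONH replicates 1 to 6 and 62.4 CPM in replicate 7 (-4.35, adjusted p = 0.000113). Synm, which encodes synemin, a filament that pairs with the other 2, was 2.69 to 18.7 CPM in retina IP, 79.9 to 147 CPM in ONH replicates 1 to 6 and 54.6 CPM in replicate 7 (-2.36, adjusted p = 0.000648). Within batch 2 none of Vim, Nes and Synm passed (adjusted p = 0.108, 0.0836 and 0.204).

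Genes of ion and transmitter handling were called in both directions. Of 20 potassium, water and pH genes, 3 were called higher (2 apart) and 6 lower (5 apart), and the lower count was 3 without ONH replicate 7. Over all genes tested, 12.7% were called higher and 21.1% lower. Kcnj10, the glial potassium channel Kir4.1, was 17.1 to 67.3 CPM in retina IP (median 21.7), 190 to 267 CPM in ONH replicates 1 to 6 (median 234) and 139 CPM in replicate 7 (-2.59, SE 0.397, adjusted p = 6.94e-05). Slc12a2, a sodium-potassium-chloride cotransporter, was 5.07 to 7.15 CPM in retina IP, 42.1 to 164 CPM in ONH replicates 1 to 6 and 96.7 CPM in replicate 7 (-4.37, SE 0.395, adjusted p = 1.03e-07). Atp1b1, a sodium pump subunit, rose: 312 to 1407 CPM in retina IP, 20 to 36.8 CPM in ONH replicates 1 to 6, 113 CPM in replicate 7 and a median of 825 CPM in retina input (3.56, adjusted p = 0.000842).

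Of 16 glutamate and GABA handling genes, 6 were called higher (4 apart) and 3 lower (2 apart), and 4 and 0 without ONH replicate 7. The GABA transporter gene Slc6a11 ranged from 123 to 787 CPM in retina IP (median 256, with 98.4 CPM as the input median). It stood at 19.8 to 33.5 CPM in ONH replicates 1 to 6 (median 25.1) and 11.9 CPM in replicate 7 (5.13, SE 0.849, adjusted p = 0.000147). Abat, which breaks down GABA, differed with less spread. It was 373 to 782 CPM in retina IP (median 486), 74.8 to 111 CPM in ONH replicates 1 to 6 (median 92.8) and 66.6 CPM in replicate 7 (3.19, SE 0.31, adjusted p = 2.9e-07; 3.18 within batch 2, adjusted p = 0.0232).

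Growth factor ligands and receptors were arranged differently in the 2 regions. Of 22 genes of platelet-derived, fibroblast and epidermal growth factor signalling, 5 were called higher (3 apart) and 9 lower (8 apart), with 3 and 6 without either of the 2 optic nerve libraries of batch 2. Pdgfa, the ligand of the receptor Pdgfra, was 7.88 to 15 CPM in retina IP (median 10.2), 115 to 167 CPM in ONH replicates 1 to 6 (median 141) and 80 CPM in replicate 7 (-3.56, SE 0.251, adjusted p = 3.78e-09; -2.71 within batch 2, adjusted p = 0.00331). The receptor, given above, differed in the opposite direction. Fgfr2 fell with Fgfr3: 2.01 to 18.2 CPM in retina IP, 87.1 to 217 CPM in ONH replicates 1 to 6 and 97.4 CPM in replicate 7 (-4.05, adjusted p = 1.64e-05). Nrg1, a neuregulin ligand, was 8.31 to 17.9 CPM in retina IP, 0.718 to 2.47 CPM in ONH replicates 1 to 6 and 2.18 CPM in replicate 7, with an input median of 18.4 CPM (3.48, adjusted p = 0.00251).

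Of 23 Wnt and norrin pathway genes, 2 were called higher (0 apart) and 11 lower (9 apart), with a median log2 fold change of -1.75. The ligand gene Wnt7b was at 0 CPM in most retina IP libraries, with a highest value of 0.797 CPM. It ranged from 58.1 to 94.3 CPM in ONH replicates 1 to 6 (median 68.2) and was 21.7 CPM in replicate 7 (-7.24, SE 0.796, adjusted p = 1.5e-06). Wif1, a secreted inhibitor of Wnt proteins, had a highest retina IP value of 0.732 CPM against 55 to 99.2 CPM in ONH replicates 1 to 6 (median 72) and 26.6 CPM in replicate 7 (-6.84, SE 0.851, adjusted p = 7.04e-06). Ligand and inhibitor were both near 0 in the retina. Rspo3, which amplifies Wnt signals, was 0 to 0.685 CPM in retina IP, 19.8 to 27.2 CPM in ONH replicates 1 to 6 and 11.4 CPM in replicate 7 (-6.55, adjusted p = 2.44e-06). The receptor gene Fzd10 was 0 to 0.907 CPM in retina IP, 20.2 to 48 CPM in ONH replicates 1 to 6 and 24.3 CPM in replicate 7 (-6.26, adjusted p = 5.73e-06). Of 23 TGF-beta and BMP genes, 0 were called higher and 8 lower (6 apart), and 1 and 5 without ONH replicate 7. Bmp4, a ligand, was 0 to 0.548 CPM in retina IP, 10.8 to 25.4 CPM in ONH replicates 1 to 6 and 28.7 CPM in replicate 7 (-6.59, adjusted p = 8.38e-08). Ltbp1, which stores latent TGF-beta in the matrix, was 2.16 to 6.09 CPM, 84.6 to 153 CPM and 41.1 CPM in the same order (-3.22, adjusted p = 4.06e-05). Of 15 endothelin and vasoactive receptor genes, 1 was called higher and 0 lower, and 0 and 0 without ONH replicate 7.

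Genes that respond to low oxygen did not share 1 direction. Of 19 hypoxia and angiogenic factors, 6 were called higher (5 apart) and 5 lower (4 apart), with a median log2 fold change of 0.68, and 3 were higher without ONP replicate 7. Epas1, the hypoxia-inducible factor HIF-2 alpha, was 144 to 893 CPM in retina IP (median 228), 38 to 50 CPM in ONH replicates 1 to 6 (median 46.4) and 54 CPM in replicate 7 (3.01, SE 0.679, adjusted p = 0.00216). Hif1a, its relative, depended on the ONH library compared. It was 249 to 368 CPM in retina IP, 20.2 to 41.6 CPM in ONH replicates 1 to 6 and 199 CPM in replicate 7 (1.44, SE 0.457, adjusted p = 0.0199), and 0.198 was its adjusted p without ONP replicate 7. Vegfa, the main vessel growth factor, was 54.7 to 249 CPM in retina IP, 11.2 to 25.2 CPM in ONH replicates 1 to 6 and 25.3 CPM in replicate 7 (2.63, SE 0.644, adjusted p = 0.0039), and did not pass without ONP replicate 7 (adjusted p = 0.0643). Bnip3, a mitophagy gene induced by hypoxia, was 243 to 714 CPM in retina IP, 95.5 to 154 CPM in ONH replicates 1 to 6 and 153 CPM in replicate 7 (1.89, SE 0.388, adjusted p = 0.00104). Ndrg1, another gene induced by hypoxia that is also high in myelinating cells, fell from 1391 to 2398 CPM in ONH replicates 1 to 6 and 961 CPM in replicate 7 to 11.4 to 113 CPM in retina IP (-4.79, SE 0.511, adjusted p = 1.01e-06).

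The glycolysis list had the highest share of members higher and apart among the 28 function lists, but not without ONP replicate 7. Of 24 genes, 18 were called higher (10 apart) and 4 lower (all 4 apart), with a median log2 fold change of 1.29. The count higher was 14 without ONH replicate 7, with 13 apart from ONH replicates 1 to 6 only, a weaker condition. It was 3 (2 apart) without ONP replicate 7, where the glutamate and GABA list had 3 of 16 apart. Summed over the list, the level was 33961 to 55780 CPM in retina IP, 13227 to 18392 CPM in ONH replicates 1 to 6, 21140 CPM in replicate 7 and 36179 to 45479 CPM in retina input. Aldoc, an aldolase of astrocytes, was 5066 to 21565 CPM in retina IP (median 8877), 1720 to 2938 CPM in ONH replicates 1 to 6 (median 2498) and 1062 CPM in replicate 7 (3.45, SE 0.588, adjusted p = 0.000196). Eno2, the neuronal enolase, was 363 to 2370 CPM in retina IP, 39.4 to 59 CPM in ONH replicates 1 to 6, 172 CPM in replicate 7 and 1693 CPM as the input median (3.58, adjusted p = 0.000892). Aldoc and Eno2 are the 2 genes named here from this list that kept their higher calls without either library. Gapdh (1.37, adjusted p = 0.00873), Pgk1 (1.21, adjusted p = 0.0274), Pkm (1.44, adjusted p = 0.0139) and Ldha (1.15, adjusted p = 0.0141), which encode enzymes of the later steps, lost theirs without ONP replicate 7 (adjusted p = 0.146, 0.266, 0.232 and 0.264). For Ldha the values were 2999 to 4520 CPM in retina IP, 897 to 1636 CPM in ONH replicates 1 to 6 and 2203 CPM in replicate 7, and Gapdh, Pgk1 and Pkm stood at 2628, 513 and 2987 CPM in replicate 7. Pgk1 was the 1 of these 4 genes whose groups overlapped, with a lowest retina IP value of 433 CPM.

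Hk2 and Slc16a1 were 2 of the 4 glycolysis genes called lower. Hk2, a hexokinase, was 4.61 to 11 CPM in retina IP, 19.3 to 38.3 CPM in ONH replicates 1 to 6 and 299 CPM in replicate 7 (-4.48, SE 0.426, adjusted p = 2.06e-07). The size of the Hk2 difference varied with the fit, from -5.29 to -1.74 over 32 alternatives. Slc16a1, a lactate transporter, was 40.7 to 103 CPM in retina IP, 451 to 923 CPM in ONH replicates 1 to 6 and 426 CPM in replicate 7 (-2.66, SE 0.364, adjusted p = 2e-05). Of 16 glycogen and pentose phosphate genes, 5 were called higher (3 apart) and 1 lower, and 2 and 0 without ONP replicate 7. Gbe1, the glycogen branching enzyme, was 66.3 to 101 CPM in retina IP, 18.6 to 34.5 CPM in ONH replicates 1 to 6 and 33 CPM in replicate 7 (1.59, adjusted p = 0.000417). Tkt, a transketolase, was 367 to 781 CPM, 182 to 293 CPM and 226 CPM in the same order (1.37, adjusted p = 0.0012).

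The promoters of 3 genes called higher from the hypoxia and glycolysis lists are shown. Among such genes they held the most matches, counted on both strands, to the 5-letter core that hypoxia-inducible factors bind. The motifs searched were ACGTG and GCGTG on both strands in the 250 bases before the first listed start of each gene, from RefSeq on build GRCm38.p6, and capitals mark every match, which may overlap.
Bnip3, chr7:138909507-138909756, minus strand: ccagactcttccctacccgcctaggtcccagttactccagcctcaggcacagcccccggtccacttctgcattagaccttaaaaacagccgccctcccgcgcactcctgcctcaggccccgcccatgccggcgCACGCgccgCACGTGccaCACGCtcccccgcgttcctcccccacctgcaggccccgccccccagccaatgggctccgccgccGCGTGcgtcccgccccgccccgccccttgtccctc
Ldha, chr7:46845554-46845803, plus strand: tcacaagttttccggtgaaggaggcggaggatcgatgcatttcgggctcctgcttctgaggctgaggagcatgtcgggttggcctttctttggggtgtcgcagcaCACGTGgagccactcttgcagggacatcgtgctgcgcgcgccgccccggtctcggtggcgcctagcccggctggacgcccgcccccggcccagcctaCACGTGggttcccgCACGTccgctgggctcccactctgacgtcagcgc
Angpt4, chr2:151910957-151911206, plus strand: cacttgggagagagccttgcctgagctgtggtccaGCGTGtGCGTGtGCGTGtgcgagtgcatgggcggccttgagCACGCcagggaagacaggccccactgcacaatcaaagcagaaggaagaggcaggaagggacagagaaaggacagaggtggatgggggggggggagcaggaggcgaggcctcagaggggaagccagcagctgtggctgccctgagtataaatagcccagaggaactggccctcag
Bnip3 and Ldha each held 5 matches and Angpt4 held 4. The letters CACGTG match once on each strand, so Bnip3 and Ldha held fewer separate sites than matches. A match was present in 12 of 17 promoters of glycolysis genes called higher (70.6%), in 4 of 4 of those called lower and in 10431 of 27025 promoters in the table (38.6%). Of the hypoxia list, 4 of 5 promoters of genes called higher held a match, 2 of 3 of those called lower and 6 of 7 of those not called. A match describes these letters only, not a bound site.

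Lipid genes were mixed. Of 26 genes of fatty acid uptake, binding and oxidation, 3 were called higher (2 apart, Cd36 among them) and 9 lower (7 apart), and 1 and 4 without ONH replicate 7. Fabp7, the brain fatty acid-binding protein, was 0 to 6.51 CPM in retina IP, 47.3 to 81.3 CPM in ONH replicates 1 to 6 and 42 CPM in replicate 7 (-4.87, adjusted p = 0.000465). Acsbg1, an acyl-CoA synthetase of astrocytes, was 0 to 5.48 CPM, 117 to 382 CPM and 81.1 CPM in the same order (-6.08, adjusted p = 0.000117). These genes of fatty acid binding and activation fell, whereas the uptake receptor Cd36 rose. Plin2, a lipid droplet coat protein, was 36 to 70.8 CPM, 145 to 274 CPM and 113 CPM (-1.40, adjusted p = 0.00145). Of 20 cholesterol genes, 7 were called higher (4 apart) and 2 lower, but 2 were higher without ONH replicate 7. Insig1, a sensor that restrains sterol synthesis, was 141 to 264 CPM in retina IP, 28.7 to 86.1 CPM in ONH replicates 1 to 6 and 55.1 CPM in replicate 7 (1.92, SE 0.369, adjusted p = 0.00057). Fdft1, squalene synthase, was 400 to 550 CPM, 142 to 354 CPM and 210 CPM in the same order (1.22, adjusted p = 0.00309).

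Matrix and adhesion genes were called lower more often than higher, as were all genes tested (21.1% lower and 12.7% higher). Of 22 basement membrane genes, 0 were called higher and 7 lower (6 apart), and 3 lower without ONH replicate 7. Col4a6, a collagen IV chain, was 0 to 1.1 CPM in retina IP, 35.5 to 59.5 CPM in ONH replicates 1 to 6 and 21.5 CPM in replicate 7 (-5.71, adjusted p = 4.67e-06). Of 18 lectican, tenascin and hyaluronan matrix genes, 2 were called higher (1 apart) and 5 lower (all apart). Hapln2, a link protein of the node of Ranvier, was 0 to 0.698 CPM, 43.9 to 177 CPM and 70.5 CPM in the same order (-8.89, adjusted p = 5.47e-08). Tnxb, a tenascin of connective tissue, was 0.0489 to 1.81 CPM, 20.3 to 47.1 CPM and 22.3 CPM (-5.27, adjusted p = 4.15e-06). Both genes lay apart, with ONH replicate 7 inside the range of the other ONH libraries. Ptprz1, a receptor phosphatase of glia, was 1.44 to 7.12 CPM, 51.6 to 130 CPM and 45.7 CPM (-4.16, adjusted p = 2.05e-06). Cspg5, a membrane proteoglycan, was 18.7 to 102 CPM, 166 to 431 CPM and 211 CPM (-2.37, adjusted p = 0.000993).

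Of 23 mechanosensing and adhesion receptor genes, 1 was called higher and 6 lower (5 apart). The exception was Ccn2, a secreted target of the YAP pathway, at 453 to 3710 CPM in retina IP, 28 to 228 CPM in ONH replicates 1 to 6 and 60 CPM in replicate 7 (5.08, SE 1.22, adjusted p = 0.00338), which did not pass without ONP replicate 7 (adjusted p = 0.0556). The stretch-gated channel gene Piezo2 was 0 to 0.463 CPM in retina IP, 5.9 to 19.3 CPM in ONH replicates 1 to 6 and 7.59 CPM in replicate 7 (-5.82, adjusted p = 7.38e-06). The integrin gene Itgb4, whose product binds laminin, was 1.32 to 13.7 CPM, 89.3 to 165 CPM and 52.8 CPM in the same order (-3.55, adjusted p = 0.000174). Itgb8, whose product activates TGF-beta, was 3.35 to 25.6 CPM, 32 to 70.1 CPM and 68.8 CPM (-2.68, adjusted p = 0.000795). Among 32 axon guidance genes, 4 were called higher (3 apart) and 6 lower (2 apart), and 2 and 3 without ONP replicate 7. These calls are near the shares over all genes tested, 12.7% higher and 21.1% lower, so the list as a whole does not stand out. Ntn1, the guidance cue netrin-1 of the optic disc, was 0 to 0.324 CPM, 6.47 to 17 CPM and 10.2 CPM (-7.39, SE 0.652, adjusted p = 7.52e-08). Its receptor gene Unc5b was 0.0996 to 4.21 CPM, 18.5 to 91.4 CPM and 44.4 CPM (-4.55, adjusted p = 4.33e-05). Ligand and receptor were both lower in the retina. Epha4, an ephrin receptor (39.8 to 80.5 CPM, 22.3 to 36.1 CPM and 19.3 CPM; 1.91, adjusted p = 0.000108), and Sema5a, a semaphorin (39.4 to 98 CPM, 16.4 to 33.4 CPM and 15.1 CPM; 1.91, adjusted p = 0.00236), rose.

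Genes linked to reactive glia were called lower in the retina more often than higher, as were all genes tested (21.1% lower and 12.7% higher). Of 22 reactive astrocyte and injury genes, 2 were called higher (1 apart) and 11 lower (10 apart), with a median log2 fold change of -2.22. Timp1, an inhibitor of matrix proteases, was 0 to 0.648 CPM in retina IP, 8.57 to 29.3 CPM in ONH replicates 1 to 6 and 13.3 CPM in replicate 7 (-6.81, adjusted p = 2.85e-06). S100a6, a calcium-binding protein, was 8.55 to 31.4 CPM, 308 to 783 CPM and 943 CPM in the same order (-6.08, SE 0.497, adjusted p = 2.86e-08). Cxcl10, a chemokine, was 0.249 to 7.39 CPM, 29.6 to 357 CPM and 61.5 CPM (-4.49, adjusted p = 0.000593). In the list of interferon response and MHC class I genes, 0 of 17 were called higher and 9 lower (6 apart), and 5 lower without ONH replicate 7 and 3 without ONP replicate 7. H2-D1, an MHC class I heavy chain whose relatives are close in sequence, was 307 to 410 CPM, 1404 to 2208 CPM and 1294 CPM (-1.97, SE 0.217, adjusted p = 1.51e-06). Ifitm3, induced by interferon, was 20.8 to 144 CPM, 313 to 780 CPM and 559 CPM (-3.38, adjusted p = 0.000217). The same libraries held more RNA of microglia, whose markers are given below, and its part in these differences was not tested.

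Lgals3 (ENSMUSG00000050335, mm10 chromosome 14, 47367751 to 47386160), which encodes the lectin galectin-3, was 1.95 to 4.91 CPM in retina IP (median 3.44), 761 to 1328 CPM in ONH replicates 1 to 6 (median 859) and 863 CPM in replicate 7. It differed by -8.33 (SE 0.48, adjusted p = 3.52e-10), and by -7.81 within batch 2 (adjusted p = 0.000374). Galectin-3 is made by phagocytes and by astrocytes of the optic nerve head. It belongs to 25 phagocytosis, lysosome and synapse genes, of which 1 was called higher and 8 lower (6 apart). Il33, an alarmin cytokine of glia, was 11.6 to 49.2 CPM in retina IP, 209 to 628 CPM in ONH replicates 1 to 6 and 354 CPM in replicate 7 (-4.03, adjusted p = 8.41e-06). Cxcl12, a chemokine that guides migrating cells, went the other way, at 121 to 1015 CPM, 21.4 to 85.6 CPM and 25.2 CPM in the same order (4.20, adjusted p = 0.0063). Without ONH or ONP replicate 7 Cxcl12 did not pass (adjusted p = 0.0762 and 0.0512). Of 15 neurotrophic factors and cytokines, 4 were called higher (2 apart) and 5 lower (4 apart), and 2 (1 apart) and 4 without ONP replicate 7.

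Metallothionein, iron and antioxidant genes had 0 of 23 members called higher and 10 lower (7 apart), and 5 lower without ONP replicate 7. Mt1, a metallothionein, was 70.5 to 251 CPM in retina IP, 361 to 798 CPM in ONH replicates 1 to 6 and 1219 CPM in replicate 7 (-3.63, adjusted p = 1.32e-05). Gpx1, a glutathione peroxidase, was 94.8 to 199 CPM, 1296 to 3962 CPM and 1466 CPM in the same order (-4.02, SE 0.403, adjusted p = 4.32e-07). Both groups lay apart for both genes. Of 13 immediate early genes, 1 was called higher and 4 lower, where 12.7% and 21.1% of all genes tested were. Nuclear genes of oxidative phosphorylation had 3 of 20 members higher and 1 lower, ribosomal protein genes 0 and 4 of 20, and mitochondrially encoded genes 0 and 0 of 12, with 0 apart in these 3 lists. These counts moved with the fit: without ONH replicate 7, 4 and 4 oxidative phosphorylation genes and 0 and 7 ribosomal protein genes were called higher and lower, and without ONP replicate 7 none of either list was. With no batch term, 12 oxidative phosphorylation, 9 ribosomal protein and 11 mitochondrially encoded genes were called higher and 0 lower.

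**Figure D3:**
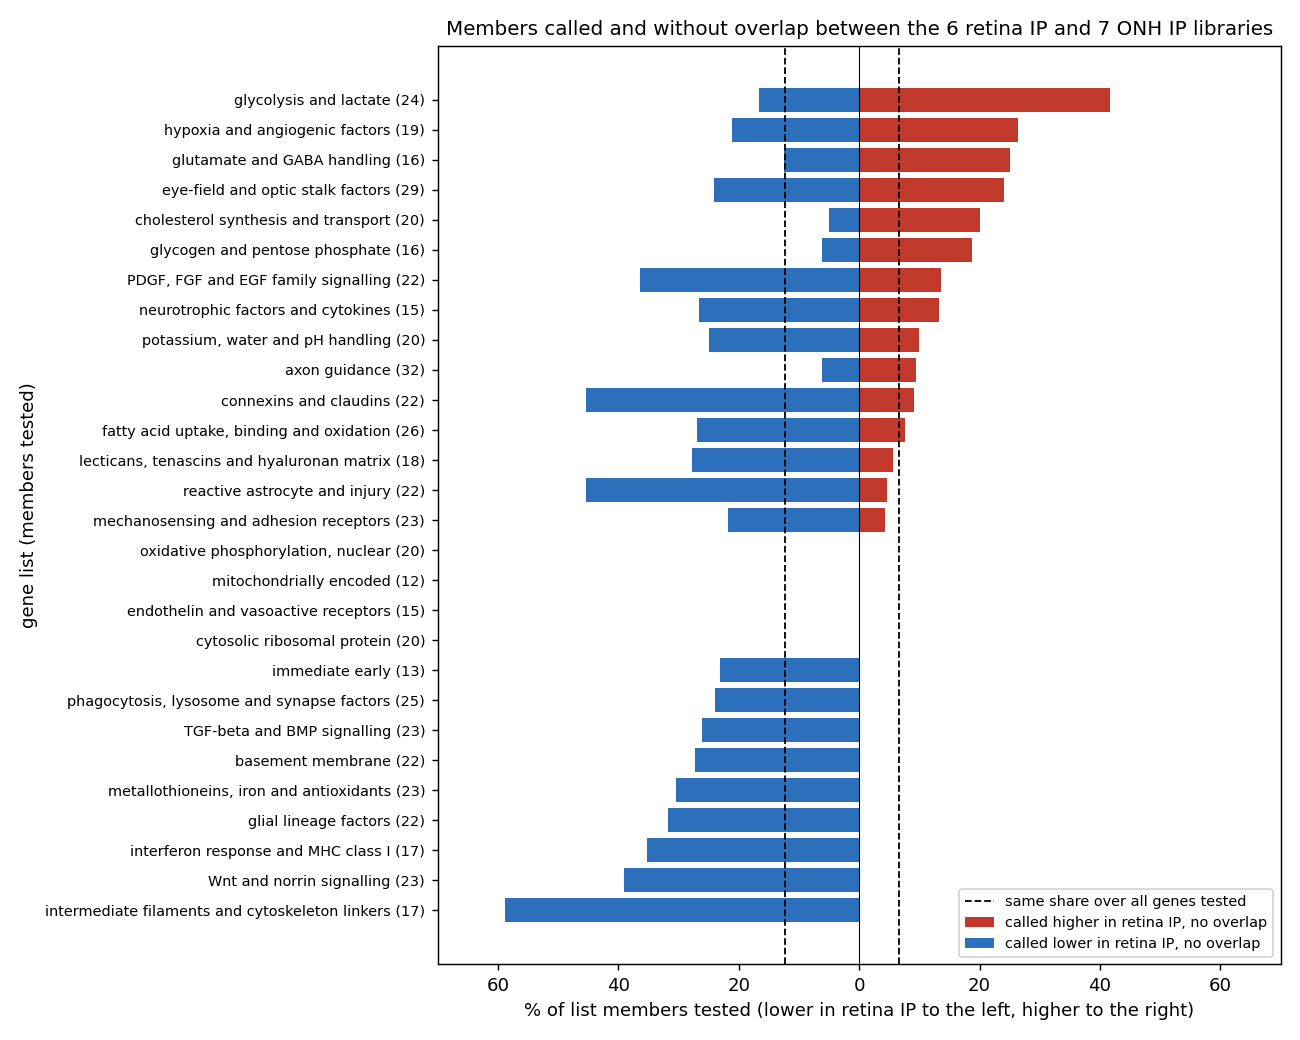
Share of the tested members of each of 28 function lists that were called and lay apart, lower in retina IP to the left and higher to the right, with dashed lines at the shares over all 16355 genes (12.4% and 6.65%). Glycolysis stands farthest right and intermediate filaments farthest left; without ONP replicate 7, 2 of the 24 glycolysis genes are called higher and apart.

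Several genes with the largest differences in favour of the optic nerve head were outside the astrocyte list. Itih3 (ENSMUSG00000006522, mm10 chromosome 14, 30908572 to 30923760), a hyaluronan-binding inhibitor chain, ranged from 133 to 220 CPM in ONH replicates 1 to 6 (median 157), was 54.7 CPM in replicate 7, and had 2 counts in retina IP. The ratio of counts was 9374 in favour of ONH (95% counting interval, 2595 to 77409). Esm1, a proteoglycan secreted by endothelial tip cells, was 61.2 to 187 CPM in ONH replicates 1 to 6 and 46.1 CPM in replicate 7, with 1 count in retina IP (ratio 16579, 95% counting interval 2975 to 654869). In ONP Esm1 was 1.73 to 27.1 CPM, below every ONH library. Cyp2j12, a cytochrome P450, was 21.8 to 83.7 CPM in ONH replicates 1 to 6 and 34.6 CPM in replicate 7, with 2 counts in retina IP (ratio 2890, 95% counting interval 800 to 23872).

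Genes of oligodendrocytes also had large differences in favour of the optic nerve head. All 15 oligodendrocyte markers tested were called lower and apart, with a median log2 fold change of -9.26. Their summed level was 74.5 to 186 CPM in retina IP, 28780 to 75914 CPM in ONH replicates 1 to 6, 31577 CPM in replicate 7 and 31 to 123 CPM in retina input, so the ONH libraries held myelin transcripts and the retina nearly none. Opalin, a myelin membrane protein, was 0 to 0.519 CPM in retina IP, 119 to 302 CPM in ONH replicates 1 to 6 and 175 CPM in replicate 7 (-10.68, SE 0.61, adjusted p = 3.47e-10). Mobp, a myelin structural protein, was 0 to 6.98 CPM, 2931 to 6258 CPM and 2299 CPM in the same order (-10.03, adjusted p = 3.05e-07). Klk6, a protease of oligodendrocytes, was 0 to 1.1 CPM, 244 to 1379 CPM and 566 CPM (-10.57, adjusted p = 7.97e-09). Galnt6, a glycosyltransferase, had the same pattern, at 0 to 0.115 CPM, 68.5 to 189 CPM and 83.2 CPM (-10.17, adjusted p = 5.65e-11). The lineage factors Sox10 (0 to 0.147 CPM, 17.5 to 78.4 CPM and 64.6 CPM; -9.46, adjusted p = 5.65e-11) and Olig2 (0 to 0.14 CPM, 19.4 to 93.6 CPM and 41.8 CPM; -9.83, adjusted p = 5.24e-08) fell with them. Among 10 precursor markers, 8 were lower and apart and 1, Pdgfra, was higher and apart. Gpr17, a receptor of committed precursors, had 3 counts in retina IP and 5982 in ONH (ratio 1881, 95% counting interval 643 to 9125), with 19.5 CPM in replicate 7.

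Markers of immune and meningeal cells were also lower in the retina. Of 14 microglia markers, 12 were called lower (8 apart) and 0 higher, with summed levels of 119 to 206 CPM in retina IP, 298 to 2444 CPM in ONH replicates 1 to 6 and 1481 CPM in replicate 7. C1qb, a complement subunit, was 8.87 to 27.4 CPM, 71.5 to 743 CPM and 435 CPM in the same order (-4.97, adjusted p = 1.68e-05), and Trem2, a microglial receptor, was 0.398 to 3.63 CPM, 8.58 to 86.8 CPM and 47.4 CPM (-4.76, adjusted p = 6.87e-05). Of 12 fibroblast and meningeal markers, 9 were lower and apart. Dcn, the proteoglycan decorin, was 0.293 to 1.34 CPM, 28 to 239 CPM and 148 CPM (-7.19, adjusted p = 1.21e-06), and Lum, its relative lumican, had 3 counts in retina IP and 3481 in ONH (ratio 1095, 95% counting interval 374 to 5311), with 19.7 CPM in replicate 7. Of 10 pigment cell markers, 6 were called lower (5 apart) and 1 higher and apart, and 4 and 0 without ONH replicate 7. The melanocyte and pigment epithelium genes Dct (0.783 to 5.63 CPM, 9.7 to 136 CPM and 90.3 CPM; -5.35, adjusted p = 3.51e-05) and Pmel (0.356 to 2.89 CPM, 7.1 to 122 CPM and 25.6 CPM; -5.90, adjusted p = 0.000104) were among those lower. Of 12 endothelial markers, 8 were called lower but 1 was apart, and of 9 pericyte markers 6 were lower (5 apart) and 1 higher. Without ONH replicate 7 these counts were 5 and 2 lower. The part of these cells' RNA in the other differences was not tested.

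Photoreceptor genes were called in the direction of ONH replicate 7, whose rod and cone sums are far above those of the other ONH libraries. All 15 rod markers and 8 of 9 cone markers were called lower in retina IP, and 0 were apart. Without ONH replicate 7, 2 rod and 1 cone markers were called lower, and with no batch term 0 and 1 were. The direction turned with the batch 1 optic nerve libraries only, a fit added after seeing the data: 8 rod and 7 cone markers were then called higher and 0 lower. Rgr, a photopigment of Müller cells and pigment epithelium, was 10.4 to 45.2 CPM in retina IP, 57.8 to 484 CPM in ONH replicates 1 to 6 and 1985 CPM in replicate 7. It was called lower and apart (-5.78, adjusted p = 0.000342), a call that ended without ONH replicate 7 (adjusted p = 0.0807). Rpe65, the visual cycle enzyme of the pigment epithelium, behaved in the same way, at 1.1 to 3.28 CPM, 6.19 to 54.8 CPM and 232 CPM (-6.24, adjusted p = 7.66e-05, and 0.129 without ONH replicate 7). Müller cell markers had 2 of 10 members higher (0 apart) and 3 lower (2 apart), with summed levels of 2580 to 8816 CPM, 3879 to 6207 CPM and 7332 CPM. Bipolar cell markers had 0 of 12 higher and 3 lower, with 0 apart. Their sums were 127 to 373 CPM in retina IP, 37.5 to 59.2 CPM in ONH replicates 1 to 6 and 493 CPM in replicate 7. Without replicate 7, 1 was called higher and 0 lower, and with the batch 1 optic nerve libraries only, 8 were called higher and 0 lower.

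**Figure D4:**
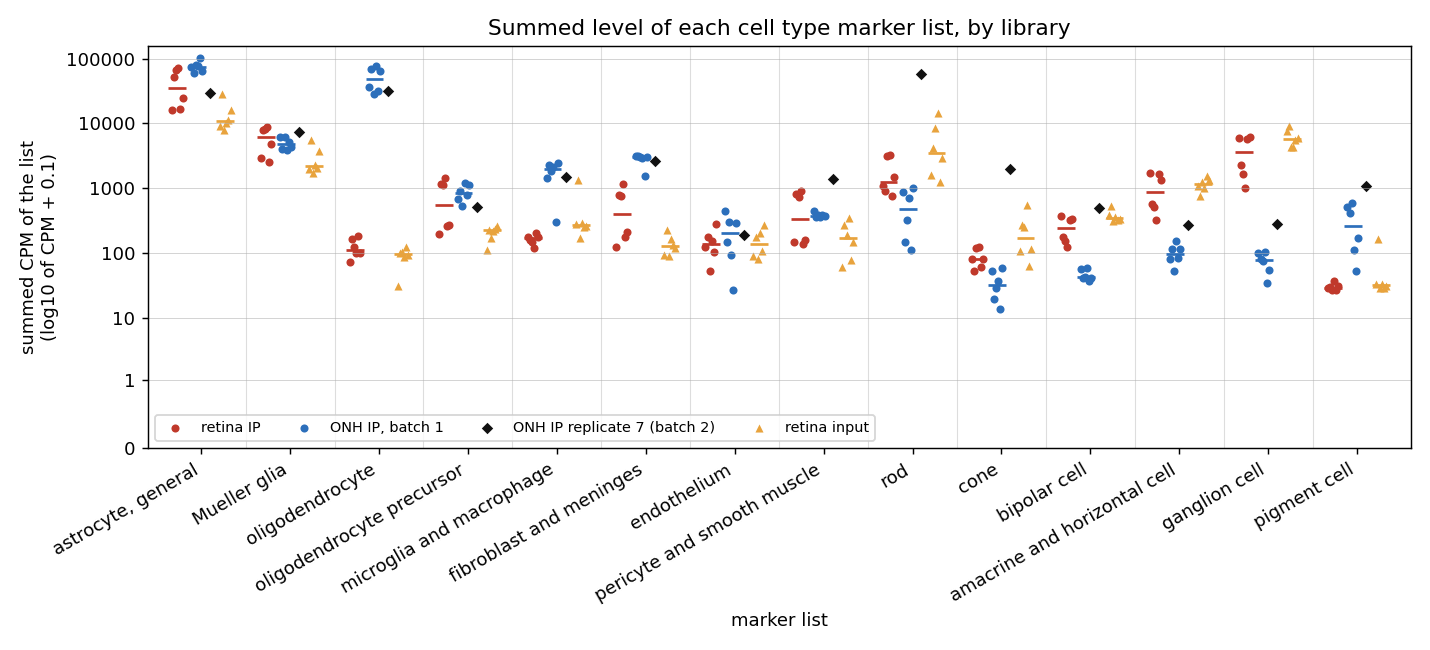
Summed CPM of each of 14 cell type marker lists, on a log10 axis after adding 0.1, with 1 point per library and a bar at the median of each group. The sums of the oligodendrocyte list are higher in every ONH library than in every retina IP library, those of the ganglion cell list are lower in every ONH library, the precursor sums overlap, and ONH replicate 7 (black diamond) stands far above every other IP library for rod and cone genes.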

How the data were processed

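Estimated counts per gene were deposited by the authors as whole numbers for 54532 genes; per the submitters' processing notes, Salmon 1.6.0 and mm10 were used, and the annotation is not given in the sources used here. Gene symbols and coordinates were taken from GENCODE M21 by gene ID. Groups, replicates and batches came from the labels. The quasi-likelihood F test of edgeR 4.0.16 in R 4.3.3 was used (TMM, filterByExpr at 10 counts and a total of 15, Benjamini-Hochberg adjustment over 16355 genes) on the 20 IP libraries with group and batch. CPM used TMM factors over all 26 libraries. A group with 1 to 3 counts is given as a ratio with a 95% exact interval of counts, and one with 0 as a bound at a floor of 3 counts; both cover counting error only.

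The comparison, its 43 gene lists (750 genes) and the gene rule were chosen with earlier results of these data known. Named genes were the 12 largest differences per direction among genes apart with at least 10 CPM in the higher group, up to 4 members per list in the majority direction and 2 in the other, and a fixed set; not all are printed, and Slc17a6, Hif1a, Angpt1, Pkm, Ldha, Gapdh, Pgk1 and Dct were added after their values were seen. The test was also run on simulated data that held no batch effect, no unusual library and no pairing. That run therefore does not bear on these features of the comparison. ONH and ONP libraries with the same number varied together (correlations of 0.122 to 0.549 over the pairs), and retina and ONH libraries did not (-0.104 to 0.161). The main fit did not model the ONH and ONP pairing and treated the IP libraries as independent. Its batch term rests on ONH replicate 7 and ONP replicate 7, the optic nerve libraries of batch 2. Alternatives were RLE factors, no filter, DESeq2 1.42.0, limma-voom (limma 3.58.1), no batch term, a 2-fold threshold, a replicate block, other sets of libraries and the omission of each library. Figures were drawn with matplotlib 3.10.9.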

Additional observations from a re-analysis of the deposited data

Results flagged for a closer look

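Of 242 groups of 6 or 7 libraries examined, each with the values of 1 gene or 1 marker list, 35 held a library far from the others by Dixon's gap test. Chance flags about 1 in 20 groups, and the part of any cause was not tested.

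In 17 of the 35, the library was ONH replicate 7, the highest of its group each time. For pigment epithelium and other retinal genes it stood at 1985 CPM for Rgr, 232 CPM for Rpe65 and 54.1 CPM for Pax6, and its marker sums were 57181 CPM for rods, 1984 CPM for cones, 493 CPM for bipolar cells and 287 CPM for ganglion cells. Neuronal genes were also high in it, with 25.5 CPM of Sncg, 7.99 CPM of Slc17a6, 0.818 CPM of Elavl2 and 113 CPM of Atp1b1. Among metabolic genes it held 2987 CPM of Pkm, 2628 CPM of Gapdh, 172 CPM of Eno2 and 299 CPM of Hk2, and it held 199 CPM of Hif1a. Its pericyte and smooth muscle sum was 1372 CPM.

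Other ONH libraries stood apart for fewer genes. ONH replicate 5 was highest for Ntsr2 (430 CPM) and Cxcl10 (357 CPM) and lowest for the fibroblast and meninges sum (1559 CPM). ONH replicate 4 was highest for Hapln2 (177 CPM), replicate 1 for Pax8 (10.5 CPM) and replicate 2 for Ackr2 (0.0688 CPM, 1 count).

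In retina IP, the values that stood apart were each the highest of the group, for genes near 0 in most retina libraries. Replicate 2 held 0.349 CPM of Dbx2, 0.0698 CPM each of Itih3 and Cyp2j12, 0.384 CPM of Gjb6, 0.732 CPM of Wif1 and 0.698 CPM of Hapln2. Replicate 4 held 0.0498 CPM of Nkx6-1, 0.797 CPM of Wnt7b and 0.648 CPM of Timp1. Replicate 5 held 0.0576 CPM of Esm1 and 0.519 CPM of Opalin, and replicate 3 held 5.48 CPM of Acsbg1.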

How the results depend on the processing

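The main counts were 2080 genes higher and 3452 lower, with 1087 and 2029 apart. The number higher rose to 3871 with no batch term, 3804 with retina and ONH libraries only and no batch term, 4601 with a replicate block in place of the batch term (4853 lower) and 4704 (2433 apart) with the batch 1 optic nerve libraries only, an alternative chosen after seeing the data. It fell to 1242 with all 26 libraries. Both counts fell under a 2-fold threshold (603 and 1677, 526 and 1275 apart), with retina and ONH libraries only and a batch term (437 and 1632, 349 and 1184 apart) and within batch 2 (121 and 697, all apart). Leaving out 1 library gave 722 to 2442 higher, 2262 to 3648 lower, 498 to 1330 higher and apart and 1517 to 2221 lower and apart. The lowest of each came without ONP replicate 7. Retina and ONH numbers do not pair, so the block is given for completeness. Of 105 named genes called, 50 kept the call and 105 the direction in all 32 alternatives, and 53 lost the call within batch 2. There, ONH is 1 library, assumed to vary like the retina libraries, and it limits what can be tested. The naming rule took many of these genes from those already called and apart. Their kept direction was largely set by that choice and is no separate check.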
